A study of Homo sapiens with 24 samples.

Results

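Argonaute 2 (Ago2) CLIP peaks that carry a match to the miR-17 family seed were examined in 293S cells, an established human embryonic kidney line, treated with sodium arsenite or left untreated. A peak was taken when the authors' column of 7-base seeds from its top 50 miRNA families named hsa-miR-17-5p, whatever the annotated region. This rule took 716 of 24041 peaks, or 2.98%, and they lay in 640 of the 6088 genes with a peak. The arsenite cells had received 1 mM sodium arsenite for 30 min, and the controls had received nothing, with 4 biological replicates of each. CLIP libraries made with an Ago2 antibody, CLIP libraries labelled LOband and RNA-seq libraries were made from both conditions, 24 samples in 6 groups. CLIP crosslinks a protein to the RNA it touches in the living cell, so a peak marks where Ago2 lay on a transcript.

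MicroRNAs guide Ago2 to messenger RNAs mainly through the seed, bases 2 to 8 of the miRNA, which pairs with complementary letters that usually lie in the 3′ untranslated region. The miR-17 family is made from the miR-17-92 cluster and its paralogs miR-106a-363 and miR-106b-25, is abundant in dividing and cancer cells, and is known for dampening cell-cycle inhibitors, the pro-apoptotic BIM and TGF-beta signalling. Arsenite is an oxidative stressor that drives phosphorylation of eIF2 alpha, stops most translation and gathers stalled messenger RNAs, with Argonaute proteins among others, in stress granules.

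The sequences that define these peaks are the mature miRNAs named for the seed by the authors, since the peaks were chosen by these letters. All 8 were found in RefSeq (GRCh38.p14), written 5′ to 3′ with the seed in capitals.
miR-17-5p: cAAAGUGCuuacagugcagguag
miR-20a-5p: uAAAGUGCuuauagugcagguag
miR-106a-5p: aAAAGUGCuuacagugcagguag
miR-20b-5p: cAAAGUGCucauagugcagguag
miR-93-5p: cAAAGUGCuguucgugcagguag
miR-106b-5p: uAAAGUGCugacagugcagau
miR-519d: cAAAGUGCcucccuuuagagug
miR-526b-3p: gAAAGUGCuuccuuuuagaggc
The 8 miRNAs share all 7 seed bases and differ in the bases after it. The letters that a target needs are GCACUUU. The genes of miR-17-5p and miR-20a-5p lie on chromosome 13, those of miR-106a-5p and miR-20b-5p on X, those of miR-93-5p and miR-106b-5p on 7 and those of miR-519d and miR-526b-3p on 19.

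Other families whose letters recur beside miR-17 below are shown in the same way, because some of them share letters with the miR-17 site.
miR-130b-3p: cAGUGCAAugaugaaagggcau
miR-19a-3p: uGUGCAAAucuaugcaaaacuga
miR-340-5p: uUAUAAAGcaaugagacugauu
miR-186-3p: gCCCAAAGgugaauuuuuuggg
miR-18a-5p: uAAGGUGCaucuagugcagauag
miR-92a-3p: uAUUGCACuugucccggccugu
MiR-130b-3p stands for the miR-130 family, which also holds miR-454-3p. The miR-130b site UUGCACU ends in 5 letters that start the miR-17 site, so 1 stretch of 9 letters, UUGCACUUU, holds both. The miR-19a site UUUGCAC shares 4 letters with it, and UUUGCACUUU holds the miR-19, miR-130 and miR-17 sites together. The sites of miR-340-5p and miR-186-3p begin with the last 4 letters of the miR-17 site, as GCACUUUAUA and GCACUUUGGG. The miR-92a site GUGCAAU and the miR-18a-5p site GCACCUU share no end with it. The seed of miR-18a-5p, made from the same cluster, differs from that of miR-17-5p by 1 substitution, A4G, counted from the 5′ end of the miRNA.

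For each peak the authors' deposited table gives a level of CLIP signal, the log average, and a difference, the log ratio, which is positive where signal was higher with arsenite than without; all peak values below are the authors'. Both pool the 4 replicates, so no value of a single sample, no replicate error and no read depth is known for any peak, and no test between conditions could be made. The sources used here give neither the log base nor the scaling, so log ratios are not turned into folds and the position of 0 rests on the authors' scaling. Groups of peaks are therefore set beside each other. Intervals of shares are Wilson 95% intervals over peaks, which are too narrow because some peaks overlap and many share a gene. Of 12 marker genes of other cell types, such as ALB and PTPRC, 0 had a peak, and of 8 genes known from this line 3 did, NEFL, VIM and MYC. The others, NEFM, KRT8, KRT18, INA and PAX2, had none, so these peaks do not identify the line.

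Nearly all miR-17 seed peaks had more normalized Ago2 signal with arsenite than without. Of the 716 peaks, 668 had a log ratio above 0, which is 93.3% (91.2 to 94.9%), against 70.3% of all peaks. A log ratio above 1 was found for 536 of them, or 74.9%, against 39.1% of all peaks. Above 2 lay 248 of them, or 34.6%, against 13.1% of all peaks. Below -1 lay 6 of the 716, against 1786 of all 24041 peaks. Their distribution lay to the right of that of the other peaks, with quartiles at 1.00 and 2.24 about a median of 1.67. The median was 0.98 over the 6865 peaks with another listed seed and 0.48 over the 16460 with none, with 77.7% and 66.2% of log ratios above 0. More transcript and more Ago2 on each transcript cannot be told apart from these values.

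**Figure D1:**
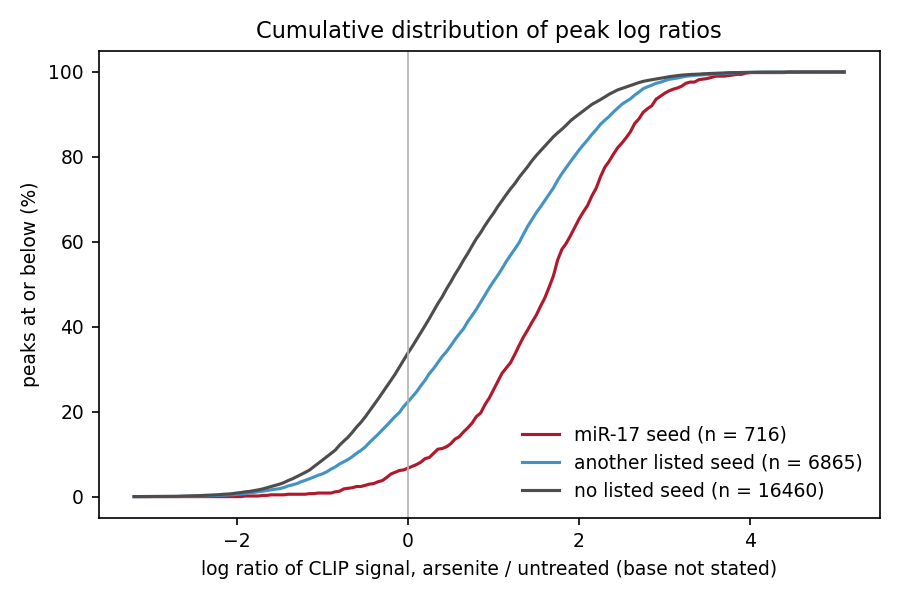
Cumulative share of peaks (%) against the log ratio (arsenite over untreated), for peaks with the miR-17 seed, another listed seed and no listed seed. The miR-17 curve lies right of the other curves over most of the range, and crosses 0 with 6.7% of its peaks at or below it.

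With 1 peak per gene the miR-17 seed peaks kept their median, but it lay nearer to that of all genes. With the peak of the highest log average taken from each gene, the median was 1.67 over 640 genes, against 1.10 over all 6088 genes. Of the 640, 602, or 94.1%, lay above 0, against 79.9% of all genes. The miR-17 seed peaks also stood high in signal: their median log average was -4.64, against -5.18 over all peaks. Log average and log ratio hardly moved together among the 716 peaks (Spearman rho 0.05, across peaks that share libraries). In 4 equal classes of the log average of all peaks, low to high, their median log ratios were 1.33, 1.75, 1.61 and 1.73 over 81, 174, 204 and 257 peaks. Peaks with no listed seed had 0.49, 0.66, 0.46 and 0.33 in the same classes.

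The miR-17 seed peaks lay mostly in 3′UTRs, where functional sites are known to concentrate. The 3′UTR held 550 of them, or 76.8%, against 51.0% of all peaks. Coding sequence (CDS) held 137, or 19.1%, against 34.5% of all peaks. The 5′UTR held 19 and exons of noncoding RNAs held 10. As a share of each region's peaks, 4.49% of 3′UTR peaks, 1.65% of CDS peaks, 0.876% of 5′UTR peaks and 0.759% of noncoding-exon peaks had the seed.

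In the 3′UTR and the CDS the miR-17 seed peaks had log ratios of much the same size. In the 3′UTR their median was 1.70 and 526 of 550 lay above 0, or 95.6%, against 76.2% of all 3′UTR peaks, whose median was 0.88. In the CDS their median was 1.54 and 121 of 137 lay above 0, or 88.3%, against 68.4% of all CDS peaks, whose median was 0.58. The medians of all peaks in these regions thus lay further apart than those of the miR-17 seed peaks.

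The few peaks in the 5′UTR and in noncoding exons were more mixed. In the 5′UTR the median was 1.55 and 15 of 19 lay above 0, against 60.8% of all 5′UTR peaks, whose median was 0.25. The highest were in TP53INP1, a p53-induced stress gene, and in TEX30, both at 3.54. SCAMP3, a carrier membrane protein, had 2.30, and ZFYVE1, a FYVE-domain protein of endoplasmic reticulum membranes, had peaks at 2.23 and 1.94. The lowest was in the corepressor CTBP1, at -1.05. Of the 10 peaks in noncoding exons, 6 lay above 0, against 42.6% of all such peaks, with a median of 0.63 and of -0.18 over all noncoding-exon peaks. Besides 3 peaks of XIST, they included LINC00116 at 3.11, HCG18 at 1.66, CIRBP at -0.83 and the nuclear RNA MALAT1 at -1.40. This median was the least stable value, at -0.48 over the 6 peaks with no other listed family and 1.42 over the 6 in the upper 75% of log averages.

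**Figure D2:**
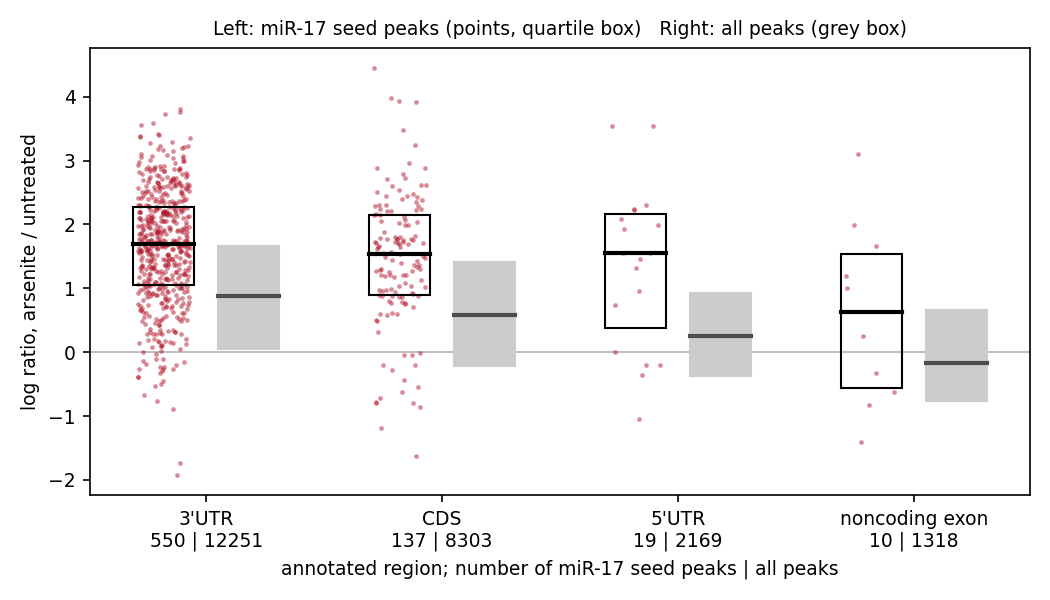
Log ratio of arsenite over untreated signal by annotated region: each point is a miR-17 seed peak, open boxes give their quartiles and median, grey boxes those of all peaks. In each region the median of the miR-17 seed peaks lies above that of all peaks, 1.70 and 0.88 in the 3′UTR and 1.54 and 0.58 in the CDS, but that of noncoding exons rests on 10 peaks and was -0.48 over the 6 with no other listed family.

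The highest log ratios were led by coding peaks: the 4 highest all lay in the CDS, which holds 19.1% of the miR-17 seed peaks. The first was in EIF2AK3, which encodes the eIF2 kinase PERK, at 4.45 (hg19, chromosome 2, 88913327 to 88913364, with no word on whether positions begin at 0 or 1). The only other peak of EIF2AK3 had no listed seed and a log ratio of 3.01. STAT3, a cytokine-activated transcription factor, came next with 3.98 at a CDS peak (chromosome 17, 40468866 to 40468902). Its other peak, in the 3′UTR, also had the seed and stood at 1.70. CSTF3, a subunit of the cleavage stimulation factor of 3′ end processing, had 3.92 (chromosome 11, 33120615 to 33120652). PABPC4, a cytoplasmic poly(A)-binding protein, had 3.91 (chromosome 1, 40038067 to 40038123).

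The next in order lay mostly in 3′UTRs. They were MTDH at 3.81, the hydrolase ABHD2 at 3.76, SLC16A7, a monocarboxylate transporter, at 3.73, the splicing factor CDC5L at 3.59, and ITCH, a ubiquitin ligase, at 3.55 (chromosome 20, 33096966 to 33097004). The 5′UTR peaks of TP53INP1 and TEX30 and a CDS peak of EIF4G3, an eIF4G translation factor, at 3.48 completed the 12 highest. The second miR-17 seed peak of EIF4G3, also coding, had 1.99, and the second of CDC5L, coding too, had 2.71. The highest values thus came from the 3′UTR, the CDS and the 5′UTR alike.

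Few miR-17 seed peaks had clearly lower signal with arsenite. The lowest was in the 3′UTR of SLC2A4RG, a zinc-finger transcription factor, at -1.92 (chromosome 20, 62374684 to 62374723). ZNF512B, a zinc-finger protein, followed with -1.74 in the 3′UTR and BAHCC1 with -1.63 in the CDS, beside a second BAHCC1 peak at 0.58. MALAT1 had -1.40, the nuclear import receptor IPO9 -1.19 and CTBP1 -1.05. The other 6 of the 12 lowest lay between -0.88 and -0.77, in RRP7A, BRAP, CIRBP, ZBTB7A, CENPB and C6orf62. Of these 12 peaks, those of IPO9 and RRP7A also matched miR-186-3p.

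The peaks with most signal were not those with the highest log ratios. The highest log average belonged to LINC00116, at 1.74, with a log ratio of 3.11. TPRG1L followed with a log average of 1.27 and a log ratio of 1.80, and the calcium channel gene ORAI1 with 1.12 and 1.08. PRR15 had a log average of 0.39 and a log ratio of 1.32, and MICA, a stress-induced ligand of natural killer cells, had 0.08 and 2.44. RASL11B had -0.14 and 2.22, CAMK2N2, an inhibitor of CaM kinase II, had -0.20 and 0.31, and TMEM138 had -0.41 and 1.96. All 8 of these log ratios lay above 0, as did 93.8% of the 257 miR-17 seed peaks in the highest class of log average.

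Many textbook targets of the family were among the genes with a miR-17 seed peak. Of all 6088 genes with a peak, 640 had one with the seed, the share to set beside the gene counts of this and the later lists. Genes with many peaks have more chances to hold one. Of 38 such genes with any peak, 26 had one with the seed, 35 peaks in all. Of the 35, 34 lay above 0, or 97.1%, with a median log ratio of 1.59. These values were near the 93.3% and 1.67 of all 716 miR-17 seed peaks. The other 270 peaks of the listed genes had a median of 0.78, with 71.1% above 0. After STAT3, ITCH and TP53INP1, the highest were the antiproliferative BTG3 at 2.84 and the lipoprotein receptor VLDLR at 2.58. APP, the amyloid precursor protein, had 2.31, the polycystin gene PKD2 had 2.17 and 1.22, BCL2L11, which encodes BIM, had 2.04, and HIF1A, the hypoxia factor, had 1.97. The repressor ZBTB4 had 2.31 and 1.58, TXNIP, which binds thioredoxin, had 1.77 and 0.31, and ARID4B, of the SIN3 complex, had 1.46 and 0.92. NCOA3 had 1.66, KPNA2 1.64, JAK1 1.59 and SQSTM1 1.31. Lower values stood at the BMP receptor BMPR2, at 0.83, the mitotic kinase WEE1, at 0.79, and the JNK kinase MAPK9, at 0.63.

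Cell-cycle genes gave 13 of the peaks, in 9 of 28 genes measured, and 12 lay above 0 with a median of 1.36 (0.65 over the other peaks of the listed genes, 72.2% above 0). The retinoblastoma family was present whole: RBL1 had 2.38 in the CDS and 1.34 in the 3′UTR, RBL2 had 1.59 and RB1 1.45. Cyclins CCNB1, in the CDS, and CCND2 had 1.76 and 1.75. CDKN1A, which encodes the inhibitor p21, had 1.74 (chromosome 6, 36654708 to 36654748) and 1.21 (36653992 to 36654079), and the F-box protein FBXO31 had 1.36. E2F1, the transcription factor held by RB1, was the exception with values of 1.32, 0.30 and -0.26.

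TGF-beta and BMP signalling gave 6 peaks in 6 of 20 genes, all in the 3′UTR and all above 0, with a median of 1.23 (0.48 over the other peaks of the listed genes, 66.0% above 0). The inhibitory SMAD6 had 2.87 and the corepressors SKI and SKIL had 2.72 and 1.46. The inhibitory SMAD7 had 0.99, BMPR2 0.83 and the BMP-activated SMAD5 0.49. The receptor and SMAD5 thus had the lowest values, but each gene gave only 1 peak and BMPR2 lay close to SMAD7. Both also had low log averages, -6.52 for BMPR2 and -6.83 for SMAD5, against -4.63 to -2.23 for the other genes.

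Of 18 genes of the miRNA machinery, 6 had a miR-17 seed peak, beside 640 of all 6088 genes. They gave 8 such peaks, while the listed genes had 209 other peaks. Of the 8, 7 lay above 0, with a median of 1.98 (0.93 over the other peaks, 72.2% above 0). EIF2C2, which encodes Ago2, had 2.21 in the CDS, and EIF2C1, which encodes Ago1, had 1.85. The GW182 scaffolds, which link Argonaute to deadenylases, differed among themselves: TNRC6A had 2.13 and 1.03, TNRC6B 2.12 and 1.45, and TNRC6C -0.76. CNOT1, the scaffold of the CCR4-NOT deadenylase, had 2.17 in the CDS.

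In the integrated stress response, which acts through eIF2, 4 of 15 genes had a miR-17 seed peak. Besides EIF2AK3, EIF2S1, the eIF2 alpha subunit, had 3.20 in the 3′UTR (chromosome 14, 67853062 to 67853090). PPP1R15B, which targets the phosphatase to eIF2 alpha, had 2.01, and SESN2, a stress-induced inhibitor of mTORC1, had -0.22. Of these 4 peaks, 3 lay above 0, those of kinase, substrate and phosphatase adaptor, and the median of the 4 was 2.61. The other 74 peaks of this list had a median of 0.65, with 75.7% above 0. The shares above 0 were thus much alike, and 4 peaks are few. Of 22 stress granule and mRNA-binding genes, 3 had a miR-17 seed peak, all above 0, against 72.9% of the list's other peaks: UBAP2L with 2.30 and FMR1 with 1.37, both in the CDS, and IGF2BP1 with 0.28.

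Other groups had their peaks spread about the overall median. Chromatin regulators had 12 peaks in 11 of 27 genes, all above 0, with a median of 1.56, against 0.40 and 64.7% above 0 for their other peaks; the histone methyltransferase SUV420H1 had 3.08, CHD9 2.93, the acetyltransferase KAT2B 2.65 and CHD4 2.11. MAP kinase and PI3K/AKT genes had 11 peaks in 9 of 32 genes, all above 0, against 70.5% of their other peaks, with a lower median of 1.11 (0.84 over their other peaks). They ran from the Ras exchange factor SOS1 at 3.39, the AKT phosphatase PHLPP2 at 2.07 and MAP3K2 at 1.44 and 1.11 down to MAP3K8 at 0.00, just above 0 before rounding. Ubiquitin genes had 10 peaks in 10 of 27 genes, 8 above 0, near the 77.3% of their other peaks, with a median of 1.56 (1.02 over their other peaks). After ITCH came the deubiquitinases USP32 and USP46 at 2.47 and 2.37 and the conjugating enzyme UBE2B at 2.11, while KLHL28 had -0.20 and FBXL5, an iron-sensing F-box protein, -0.50.

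Vesicle traffic genes had 8 peaks in 7 of 24 genes, 7 above 0, near the 83.3% of their other peaks, with a median of 1.63 (0.96 over their other peaks). Among them were the clathrin heavy chain CLTC at 2.88, RAB5B at 2.47, SAR1B at 2.27 and TMEM127 at -0.11. Autophagy and lysosome genes had 5 peaks in 5 of 15 genes, all above 0, with a median of 1.74 (0.87 over their other peaks, 74.6% above 0). These were ZFYVE26 at 2.62, ATG2A at 2.25, ATG16L1 at 1.74, SQSTM1, and ATG2B at 1.00. Apoptosis genes had 4 peaks in 4 of 14 genes, all above 0, with a median of 2.45 (0.82 over their other peaks, 75.9% above 0): TP53INP1, the death receptor TNFRSF21 at 2.86, BCL2L11, and MCL1, an anti-apoptotic BCL2 relative, at 0.49. Heat-shock and oxidative-response genes had 5 peaks in 4 of 19 genes, all above 0, with a median of 1.31 (1.02 over their other peaks, 79.4% above 0). Beside TXNIP and SQSTM1 these were KEAP1, the sensor of the NRF2 pathway, at 1.43 and SRXN1, sulfiredoxin, at 1.08.

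Peaks of the same gene and region were compared next. Whether they lie on the same transcript was not checked, so transcript abundance may not be fully matched. The RNA-seq libraries were not analysed here. A miR-17 seed peak and a peak with no listed seed lay in the same region of the same gene in 382 pairs from 380 genes, each side taken as its median. Of the 716 miR-17 seed peaks, 116 overlapped another peak of any kind. The sides of a pair can therefore overlap, which was not checked. The miR-17 side was higher in 272 pairs, or 71.2%, by a median of 0.61 on the log ratio scale. The difference was 0.64 over 299 pairs in 3′UTRs, 217 of them above 0, and 0.51 over 69 pairs in the CDS, 48 of them above 0. In 5′UTRs it was -0.39 over 8 pairs, 3 of them above 0, so the few 5′UTR pairs went the other way.

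Against peaks of the same gene and region with another listed seed, the difference was smaller, at 0.27 over 285 pairs, 173 of them above 0. In 3′UTRs it was 0.31 over 243 pairs, 155 of them above 0. In the CDS it was -0.10 over 36 pairs, 16 of them above 0. The 95% binomial interval of that CDS median ran from -0.46 to 0.80, so these pairs do not settle the direction. Over all CDS peaks, paired or not, the median was 1.54 with the miR-17 seed and 0.90 with another listed seed.

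The largest differences from peaks with no listed seed came from genes whose other peaks had a log ratio below 0. In the 3′UTR of ZNF295 the miR-17 seed peak had 2.87 and the other -1.09, a difference of 3.96. The calcium pump gene ATP2B1 had 3.01 and -0.63, the actin-binding profilin PFN2 had 2.68 and -0.82, and the kinase ABL2 had 2.41 and -1.08. METTL21D, VANGL1 and SPG20 in the 3′UTR and VPRBP in the CDS followed with differences of 3.44, 3.33, 3.29 and 3.12. At the other end, BNIP2 had 0.99 at its miR-17 seed peak and 3.43 at the other, both in the CDS, a difference of -2.44. C7orf41 had 0.21 and 2.63, PURB 0.50 and 2.47, and ZBTB6 1.02 and 2.97, all in the 3′UTR.

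**Figure D3:**
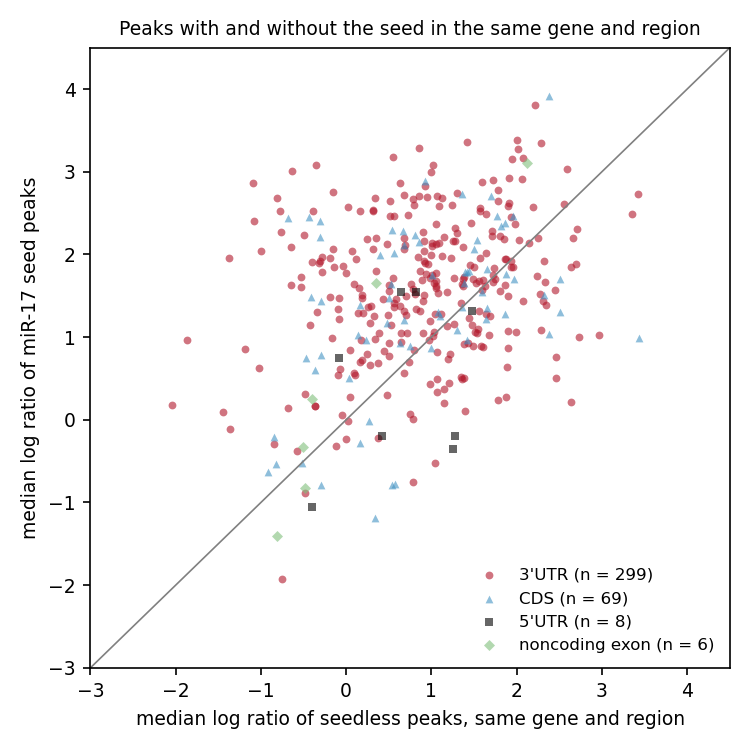
Median log ratio of miR-17 seed peaks against that of peaks with no listed seed in the same gene and region, 1 point for each of 382 pairs, by region. Points above the diagonal, 272 of 382, are pairs whose miR-17 seed peaks have the higher log ratio.

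Over all regions, the 2396 peaks with no listed seed in genes with a miR-17 seed peak had a median of 0.36, 60.8% of them above 0, and the 14064 in other genes had 0.50, 67.1% of them above 0. Within the main regions the medians were closer. In 3′UTRs the median was 0.68 over 1205 peaks in genes with a miR-17 seed peak, and 0.68 over 6332 peaks in other genes. In the CDS the medians were 0.53 over 702 and 0.45 over 5391 peaks. In genes with 3 or more peaks, 32.0% of 465 miR-17 seed peaks had the highest log ratio of their gene and 37.0% the highest log average, where an even spread over the peaks would give 18.2%. For peaks with another listed seed these shares were 18.3% and 19.8%, with 14.5% if even, and for peaks with none 10.8% and 10.1%, with 12.7% if even.

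Most genes held a single miR-17 seed peak: 575 had 1, 56 had 2 and 9 had 3 or more. Of the 65 genes with 2 or more, 56 had all of them above 0, 8 were mixed and 1, ZNF512B, had all below 0. Since 93.3% of all 716 miR-17 seed peaks lay above 0, this count says little about agreement within a gene. The spread between the highest and lowest peak of a gene had a median of 0.73 and reached 3.60 in ZBTB7A. Some of these peaks are not independent, since 38 of the 716 overlapped another miR-17 seed peak and 116 overlapped another peak of any kind.

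Of the 9 genes with 3 or more, 8 code for protein and the other is the noncoding RNA XIST, whose values are not described. ZNF512B had 5, at -0.15, -0.38, -0.38, -0.46 and -1.74, beside 19 peaks with no listed seed whose median was -0.49. Its miR-17 seed peaks thus followed the other peaks of the gene. ANKRD52, a subunit of protein phosphatase 6, showed the opposite: its seed peaks had 2.40, 1.97 and 0.72, while its 43 peaks with no listed seed had a median of -0.11 and only 18 of them lay above 0. E2F1 had 1.32, 0.30 and -0.26, the highest and lowest of which came from overlapping peaks, beside a median of 0.48 over 13 peaks with no listed seed.

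In FYCO1, an adaptor of autophagosome transport, the miR-17 seed peaks had 2.87, 2.74 and 2.02, against a median of 1.30 over 6 peaks with no listed seed. ZBTB7A, a transcriptional repressor, had 2.80 and 1.59 in the 3′UTR and -0.79 in the CDS, against 0.54 over 23. The ETS factor ELK4 had 2.26, 1.23 and 1.00, against 1.44 at its only peak with no listed seed. RUFY2 had 1.87 in the CDS and 1.36 and 1.27 in the 3′UTR, against 1.56 at its only peak with no listed seed. ZZEF1 had 2.15 and 0.86 in the CDS and 2.10 in the 3′UTR, with no other peak in the gene to compare. The genes thus ranged from seed peaks that stand apart from the gene's other peaks to seed peaks that do not.

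**Figure D4:**
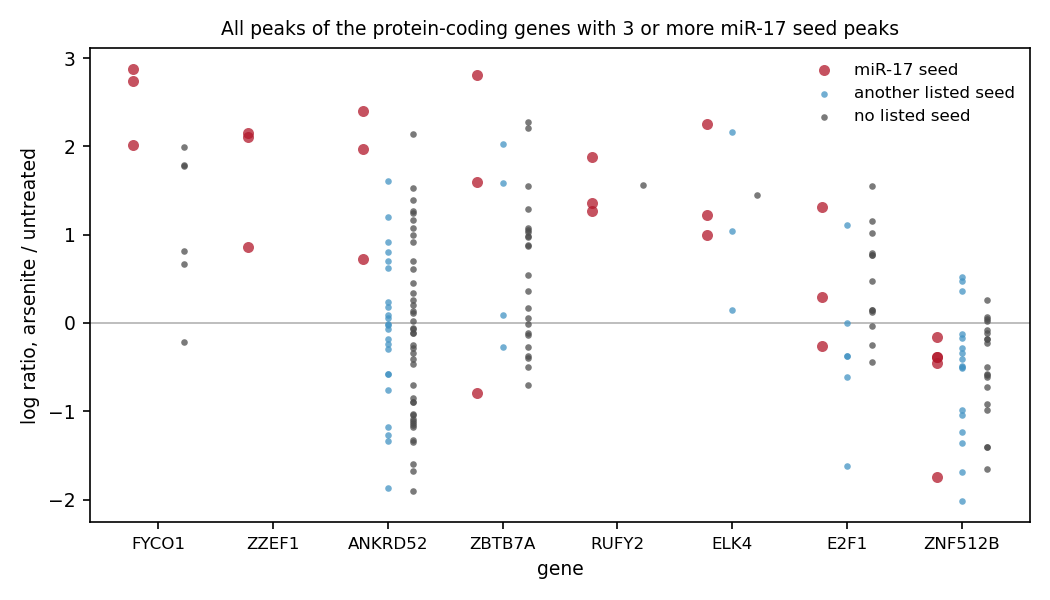
Log ratio of every peak in the 8 protein-coding genes with 3 or more miR-17 seed peaks, by seed content. All 5 ZNF512B seed peaks lie below 0, while those of ANKRD52, at 2.40, 1.97 and 0.72, stand above the median of its other peaks.

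Other seeds were often listed beside miR-17, with little difference in median log ratio up to 3 families. Of the 716 peaks, 478 matched miR-17 alone and 238, or 33.2%, matched at least 1 more of 42 other families. The median log ratio was 1.67 with miR-17 alone, 1.67 with 2 families over 157 peaks and 1.66 with 3 over 70 peaks. It was 1.52 with 4 families over 8 peaks and 1.20 with 5 over 3 peaks, in ARHGAP12, DYNC1LI2 and PPP6R2. With miR-17 alone 441 of 478 lay above 0, or 92.3%.

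The 4 partners most often listed were families whose letters can share a stretch with GCACUUU. Of the 417 peaks with a miR-130 match, 114 also had miR-17, or 27.3%, where 2.98% of all peaks had it. Of the 62 with miR-340-5p, 15 did, or 24.2%, of the 556 with miR-19, 60 did, or 10.8%, and of the 205 with miR-186-3p, 16 did, or 7.80%. Of the 60 with miR-19, 54 also matched miR-130. For the 2 families shown above that share no end with the miR-17 site the shares were lower: 4 of 430 miR-25/92 peaks, or 0.930%, and 0 of 211 miR-18a-5p peaks had miR-17. Of other families, whose letters were not compared, some also lay above 2.98%, such as miR-4766-3p with 3 of 35, or 8.57%, and miR-146 with 5 of 77, or 6.49%. The positions of the matches were not analysed here, so whether the letters overlap in a given peak is not known.

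Peaks that match both miR-17 and miR-130 had a median log ratio of 1.72 and 112 of 114 lay above 0, against 1.44 and 90.1% for 303 miR-130 peaks without miR-17. In 3′UTRs 96 of 96 lay above 0, with a median of 1.74, against 92.4% and 1.44 over 237 without miR-17. With miR-19 the difference was small, at 1.64 over 60 peaks with miR-17, against 1.56 over 496 without. Peaks with miR-340-5p and miR-17 had 2.07, and all 15 lay above 0, against 1.34 and 89.4% above 0 over 47 without miR-17. Peaks with miR-186-3p and miR-17 had 1.01, against 0.53 over 189 without miR-17, and 11 of 16 lay above 0, near the 66.1% of those without. The miR-186-3p partner thus went with the lowest of these medians, and it occurs at the IPO9 and RRP7A peaks above.

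The log ratio of miR-17 seed peaks was second in the order of 50 families by median. The miR-25/92 family, made in part from the same clusters, had 1.72 over 430 peaks, with 95.3% above 0, a difference of a few hundredths that these data cannot test. MiR-19 had 1.57, miR-130 1.55 and miR-18a-5p 1.41. The miR-30 family, which has another seed and is made elsewhere, came next after miR-17 with 1.60. Other products of the same clusters stood far lower, miR-17-3p with 0.77, miR-106b-3p with 0.57 and miR-18a-3p, last of the 50, with 0.05. Products of these clusters thus stood both high and low in the order. The part of cluster origin in the log ratio was not tested.

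Shorter peaks had higher log ratios, with the seed and without it. Counting both end positions, the median length was 44 nucleotides for miR-17 seed peaks and 50 for all peaks. From peaks of up to 30 nucleotides to peaks over 80, the medians of the miR-17 seed peaks were 1.92, 1.76, 1.67, 1.59, 1.44 and 0.78 over 54, 238, 144, 117, 117 and 46 peaks. In the same classes, peaks with no listed seed had 1.07, 0.73, 0.53, 0.35, 0.30 and 0.23. At each length the miR-17 seed peaks were higher, and Spearman's rho between length and log ratio was -0.23 among them and -0.16 among peaks with no listed seed. The part of peak length in the difference between the groups was not tested beyond these classes.

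**Figure D5:**
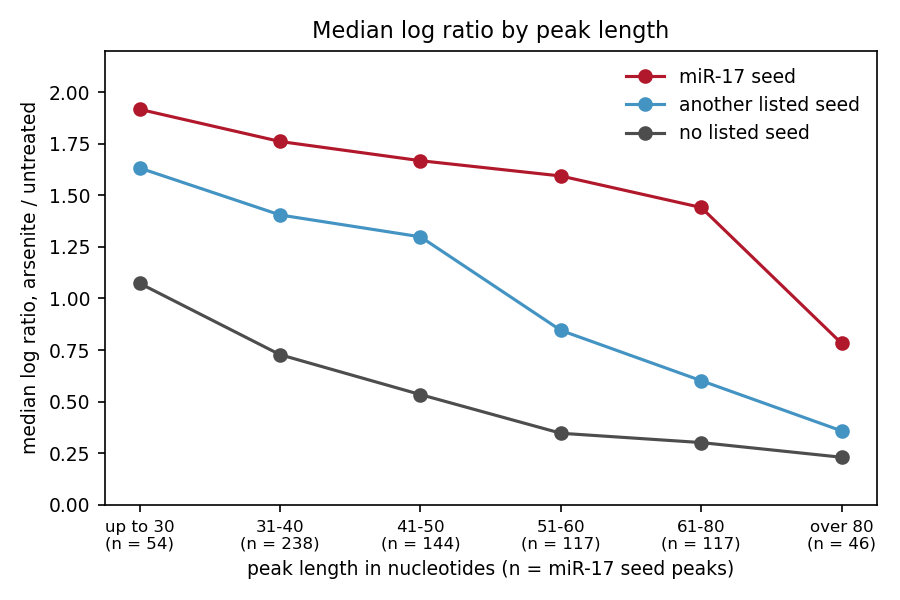
Median log ratio of arsenite over untreated signal by class of peak length in nucleotides, for peaks with the miR-17 seed, another listed seed and no listed seed. The miR-17 seed medians run from 1.92 in the shortest class to 0.78 in the longest and are above the others in each.

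The abundant miRNAs of the family had log2 ratios near 0. In the authors' deposited table of miRNA counts from the LOband libraries, miR-17-5p had a mean of 444032 normalized counts with arsenite and 449539 without, a log2 ratio of -0.02 (DESeq p = 0.946). MiR-20a-5p had 335495 and 344285, a log2 ratio of -0.04 (DESeq p = 0.894), in the authors' deposited table. The same table gave miR-93-5p 121416 with arsenite and 113921 without, a log2 ratio of 0.09, and miR-106b-5p 102171 and 101951, a log2 ratio of 0.00. These 4 made up nearly all of the family's signal: in the authors' deposited table miR-17-5p held 43.7% of the family's sum, miR-20a-5p 33.3%, miR-93-5p 11.5% and miR-106b-5p 9.99%.

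The rarer members were near the same level too, apart from the rarest. In the authors' deposited table miR-106a-5p had 10395 with arsenite and 10360 without, and miR-20b-5p had 4474 and 4689, a log2 ratio of -0.07. MiR-526b-3p had only 6.12 with arsenite and 13.99 without in the same table, and miR-519d was not listed. Its p in the authors' deposited table, from DESeq, was 0.505, the smallest of the family. The family sum, 5.70% of the mature miRNA sum, had a log2 ratio of -0.01, and the adjusted p-value (DESeq) was 1 for all 7 listed members in the authors' deposited table. Single-sample values were not analysed here, so the interval around these ratios is not known.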

How the data were processed

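Per the labels, 293S cells with and without arsenite were profiled by Ago2 CLIP, LOband CLIP and RNA-seq, with 4 biological replicates in each group. The authors deposited a peak table on hg19 in which each peak has 2 values, a log average and a log ratio, treated here as a score because neither the log base nor the normalization is stated. The authors' deposited miRNA table gives mean signal per condition, ratio (fold), log2 ratio, p-value and adjusted p-value. Bowtie 0.12.8, TopHat and DESeq are named in the submitters' processing notes. The peak caller is not given in the sources used here. Both tables pool replicates, so read depth, its precision and replicate spread are unknown and the planned count test could not be run.

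Medians, quartiles, counts and Wilson 95% intervals were computed with Python 3.11.15, pandas 2.3.3 and scipy 1.17.1, with no filter on low values, and the scripts were tested on simulated data. Peaks sharing a gene and region were paired by their medians. The members and gene lists were chosen with earlier results of these data known. Peaks named are the log ratios highest and lowest in order, 12 of each and 1 per gene, the 8 highest log averages, the extremes of each region, all textbook targets, up to 4 members of each other list by absolute log ratio (1 is not reported here), genes with 3 or more seed peaks (XIST by name alone), the 8 largest and 4 smallest within-gene differences and the peaks with most families. Other named values (further members of small lists, second peaks of named genes and some 5′UTR and noncoding peaks) were chosen after their values were seen. Alternatives changed 1 choice at a time.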

Additional observations from a re-analysis of the deposited data

How the results depend on the processing

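Of 35 alternatives, 27 stayed within the interval or the 1.5-fold range set for them, 7 moved further and 1 reversed. The median log ratio of miR-17 seed peaks was 1.75 over peaks of at most 50 nucleotides, an alternative chosen after seeing the data (all such peaks had 0.93), and the mean was 1.58 (0.66 over all peaks). The count above 0 was 441, of 478, when peaks matching other families were left out, which leaves fewer peaks by construction. The within-gene difference was 0.48 between the peaks of highest log average, 0.27 against peaks with another listed seed and 0.78 over any region of the gene; the cause was not tested. The median over family miRNAs with a mean of at least 20 was -0.0073 (log2). The noncoding-exon median reversed to -0.48 over the 6 peaks matching miR-17 alone; with so few peaks it depends on single values, and the cause was not tested. No paired analysis was possible because the tables hold no values of single samples, and for the same reason leaving out each replicate was not run.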
